A study of Homo sapiens with 6 samples.

Results

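The transcripts described here are those of 32 human genes of the ATF4 stress response and of amino acid supply, taken by symbol from a table of 57773 genes. All 32 had a row in the deposited counts, and all 32 passed the low-count filter that left 21308 genes for testing. They comprise 6 transcription factors, 5 feedback and stress effectors, 5 enzymes of amino acid synthesis, 8 amino acid transporters or their partner chain, and 8 genes of tRNA charging and export. The samples were 6 subcutaneous tumours of the human pancreatic ductal adenocarcinoma (PDAC) line PATU in nude mice, a strain that lacks mature T cells but keeps myeloid, endothelial and stromal cells. In every tumour the PATU-ishME3 cells carried an inducible short hairpin targeting ME3, a malic enzyme of mitochondria that uses NADP. In 4 tumours (off dox) no doxycycline was given, and in 2 tumours (on dox) doxycycline was given to lower ME3. Doxycycline itself, hairpin induction and lower ME3 cannot be told apart in this design, which holds 1 cell line and no control hairpin. Neither the animals' age nor the length of treatment is given in the sources used here.

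ATF4 is the transcription factor at the end of the integrated stress response. Kinases that sense amino acid shortage, misfolded protein in the endoplasmic reticulum, haem shortage or double-stranded RNA phosphorylate the initiation factor eIF2, which slows translation in general and favours translation of the ATF4 mRNA through its upstream reading frames. ATF4 then binds composite C/EBP-ATF elements with C/EBP partners and raises genes that make, import and charge amino acids, while PPP1R15A and TRIB3 feed back on the response. ATF4 output is thus largely set at translation, and the mRNA level of ATF4 is not a measure of its protein.

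The composite element is shown first because it is the sequence that joins many of these genes. The 8-base core searched was TGATGNAA, read on both strands (TTNCATCA is its reverse complement), in the RefSeq promoter windows of build GRCh38.p14, which run from 250 bases before to 50 bases after an annotated start. Of the 32 genes, 29 matched a RefSeq window, with 47 windows in all, and PSPH, SHMT2 and SLC7A11 had none. The core was in at least 1 window of 14 of these 29 genes (48.3%), against 4.46% of all 27305 genes with a window. It was in 29.8% of their windows, against 3.62% of all 35116 windows in the table. The 32 genes were listed for the ATF4 response and amino acid supply, so the larger share says nothing about these tumours. Below are 8 of the 14 matches with 20 bases on each side, printed 5′ to 3′ on the strand of the gene, with the core in capitals. They were chosen to show the core in a synthesis enzyme, an effector, a pair of transcription factors, a transporter and 3 tRNA synthetase genes. The core of ASNS began 68 bases before the start, that of CHAC1 209, that of ATF3 191, that of CEBPG 42, that of AARS 187 and that of IARS 13 bases before it. Those of MARS and SLC38A1 each began 4 bases before the start.
ASNS (chr7:97872449-97872496, minus strand): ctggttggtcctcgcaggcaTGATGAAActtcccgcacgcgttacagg
CHAC1 (chr15:40953242-40953289, plus strand): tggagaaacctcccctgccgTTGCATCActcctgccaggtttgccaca
ATF3 (chr1:212565196-212565243, plus strand): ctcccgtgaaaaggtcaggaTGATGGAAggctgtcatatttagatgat
CEBPG (chr19:33374051-33374098, plus strand): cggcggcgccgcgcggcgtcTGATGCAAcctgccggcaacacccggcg
SLC38A1 (chr12:46266493-46266540, minus strand): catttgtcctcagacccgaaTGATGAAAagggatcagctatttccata
AARS (chr16:70289666-70289713, minus strand): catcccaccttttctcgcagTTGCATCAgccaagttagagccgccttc
IARS (chr9:92293683-92293730, minus strand): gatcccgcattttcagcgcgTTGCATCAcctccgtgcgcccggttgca
MARS (chr12:57488044-57488091, plus strand): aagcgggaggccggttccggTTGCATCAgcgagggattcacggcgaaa

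In CHAC1, AARS, IARS and MARS the core was on the opposite strand, so the reverse complement is in capitals. The windows of ATF4, ATF5, DDIT3, CEBPB, TRIB3, PPP1R15A, SESN2, VLDLR and SLC38A2 held no match. Nor did those of PHGDH, PSAT1, SLC7A5, SARS, EPRS and XPOT. The lack of a match says only that these letters were not in the windows. The median log2 fold change, on dox over off dox, was 0.04 for the 14 genes with a match (range -0.35 to 0.18) and -0.26 for the 15 genes with a window but no match (range -0.70 to 0.65). This is a description of the genes listed, and the difference was not tested.

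Library totals were 23855338 to 26885699 counts. ME3 was at 44.2, 44.1, 38.7 and 37.9 CPM (counts scaled per library to a common total, TMM-adjusted) in the off-dox tumours (1 to 4) and at 33.3 and 28.5 CPM in on-dox tumours 1 and 2, a log2 ratio of -0.41 (SE 0.12) that did not pass correction over all genes with edgeR's quasi-likelihood test (adjusted p = 0.148). On-dox tumour 1 stood apart: mitochondrial genome mRNAs took 0.529% of its counts against 0.222% to 0.276% in the other 5 tumours, and MALAT1 and NEAT1, 2 RNAs of the nucleus, took 4.08% against 1.48% to 2.33%. Off-dox tumour 4 held the most skeletal muscle RNA, 0.0531% of counts over 6 markers against 0.000234% to 0.00559% in the others. Off-dox tumour 1 had the highest sum of 6 fibroblast markers, 0.0772% of counts against 0.0136% to 0.0304%. That sum came mostly from the collagens COL1A1, COL1A2 and COL3A1 (352, 165 and 281 CPM in off-dox tumour 1). PDGFRB did not follow it, at 1.04 CPM there and at 1.01 to 2.31 CPM over the 6 tumours. DCN and LUM were at most 0.654 and 0.0406 CPM in any tumour. Myeloid markers took at most 0.00392% of counts and endothelial markers at most 0.000629% in any tumour. Host cells are of mouse and reads were counted on human genes, so these marker shares do not measure the host cells present. The keratins KRT8 and KRT18 were at 690.3 to 1050.0 and 368 to 506 CPM. EPCAM was at 24.7 to 39.3, MUC1 at 7.78 to 21.7 and CDH1 at 9.69 to 16.4 CPM. CLDN4 and KRT7 were low, at 1.30 to 2.25 and 0.229 to 1.58 CPM. Of the 8 epithelial markers, KRT19, a keratin of ductal cells, had 1 count over all tumours. In tumour RNA, fewer cells of a type and less RNA per cell cannot be told apart. The labels name separate tumours, and the spread that enters the p-values is that between tumours of 1 line.

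By edgeR's quasi-likelihood test with a threshold of 0.05 on the adjusted p, no gene of the 32 was called, against 1.06% of all genes tested (0.465% higher and 0.591% lower on dox). CEBPB, a C/EBP factor that pairs with ATF4, had the smallest adjusted p (0.0641), followed by SLC38A2, a transporter of small neutral amino acids (0.104). At an unadjusted p under 0.05, 1 gene lay higher, where 6.84% of all genes did, and 5 lay lower, where 7.42% did: SLC38A2 on the higher side, and CEBPB, PPP1R15A, TRIB3, VLDLR and SLC3A2 on the lower. By DESeq2, SLC38A2 was called higher (adjusted p = 0.00427) and CEBPB lower (adjusted p = 0.00415). Of the 18450 genes to which DESeq2 gave an adjusted p, it called 1.58% higher and 2.2% lower. Limma voom called none of the 32, and 0.441% of all genes higher and 0.422% lower. At an unadjusted p under 0.05, DESeq2 placed 1 of the 32 higher and 4 lower, against 6.39% and 7.36% of the same 18450 genes. Limma voom placed 2 higher and 5 lower, against 6.98% and 6.8% of all genes tested. Without a low-count filter, edgeR called 0.79% of genes higher and 1.17% lower. With at least 1 CPM required in every tumour it called 0.809% higher and 1.04% lower. The log2 fold changes, also called log2 ratios here and always on dox over off dox, had a median of -0.05 over the 32 genes, 14 above 0 and 18 below, beside a median of -0.00 over all genes tested. The 95% interval of the fold change lay within 2-fold in either direction for 29 of the 32 genes, and reached past it for CEBPB, CHAC1 and SLC38A2. The same held for 87.5% of the 13996 tested genes with a mean CPM at or above that of the lowest of the 32.

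**Figure D1:**
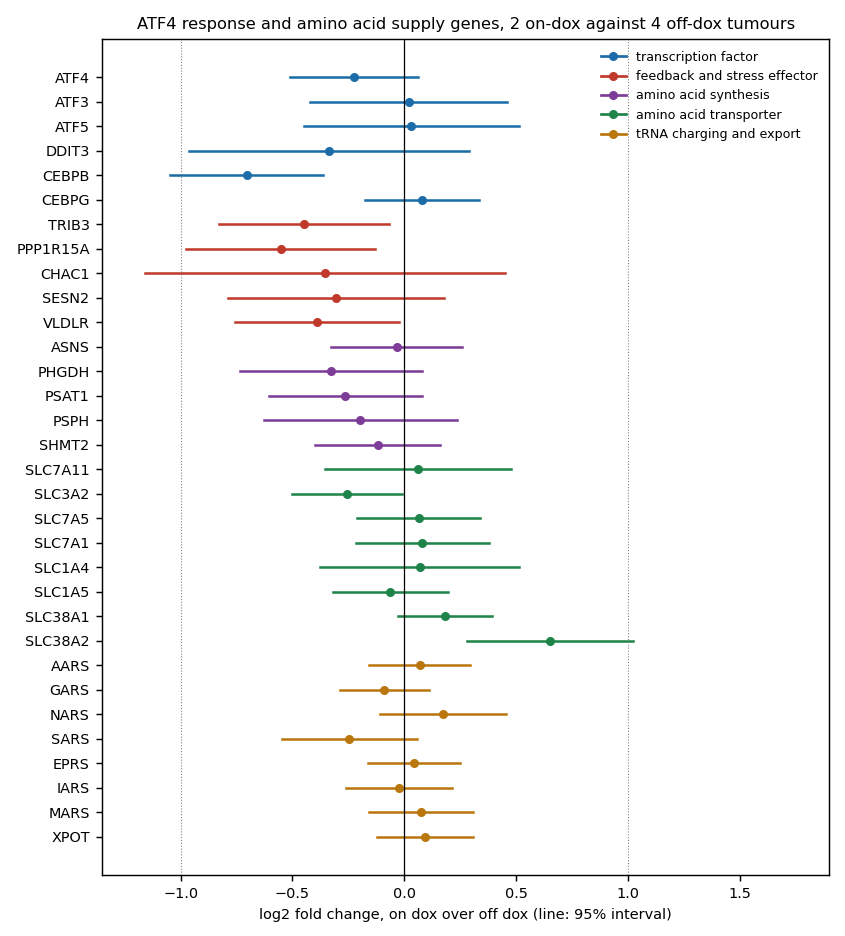
Log2 fold change of each of the 32 genes, on dox over off dox (x axis; dot), with its 95% interval from the quasi-likelihood fit (line), coloured by role. Dotted lines mark 2-fold; the dots run from -0.70 for CEBPB to 0.65 for SLC38A2, all 5 effectors and all 5 synthesis enzymes lie to the left of 0, and 6 of 8 transporters and 5 of 8 tRNA genes lie to the right.

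ATF4 was the second most abundant of the 32 transcripts per exon length. Its level was 218, 192, 198 and 195 CPM in the off-dox tumours (1 to 4), and 143 and 200.1 CPM in on-dox tumours 1 and 2. On-dox tumour 1 was the lowest of all 6, while on-dox tumour 2 lay inside the off-dox range. The log2 fold change was -0.23 (SE 0.13, adjusted p = 0.473). Leaving out on-dox tumour 2 moved the ATF4 value to -0.49, and leaving out on-dox tumour 1 instead moved it to -0.00. Each of those fits holds 1 on-dox tumour, whose spread is taken from the off-dox group, so only the sizes are given. In the alternatives that kept both on-dox tumours, the adjusted p of ATF4 ran from 0.367 to 0.848. The direction of ATF4 thus rested on on-dox tumour 1, the tumour with high mitochondrial and nuclear RNA, whose part in the result was not tested.

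CEBPB, the lowest of the transcription factors relative to off dox, was at 24.3, 20.6, 21.0 and 17.5 CPM off dox and at 11.97 and 13.6 CPM on dox. Neither on-dox tumour reached the lowest off-dox value, as for 11.5% of all genes tested. The mean was 20.8 ± 2.80 CPM (SD, n = 4) off dox and 12.8 ± 1.16 CPM (SD, n = 2) on dox, 0.614-fold with a 95% interval from 0.484 to 0.778 (log2 fold change -0.70, SE 0.15). With the test's threshold at an adjusted p of 0.05, CEBPB missed the call by edgeR and passed it without a low-count filter (adjusted p = 0.00938), with a filter of at least 1 CPM in every tumour (0.0491) and by DESeq2. Over all alternatives its adjusted p ranged from 0.00415 to 0.238, and its log2 fold change from -0.80 to -0.61 with 1 tumour left out.

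CEBPG, the other C/EBP partner listed, was at 56.4, 51.0, 53.5 and 57.3 CPM off dox and at 50.5 and 64.7 CPM on dox. The 2 on-dox tumours were the lowest and the highest of the 6 for CEBPG (log2 ratio 0.08, adjusted p = 0.818). The ratio of CEBPB to CEBPG, both in CPM, was 0.431, 0.403, 0.393 and 0.305 in the off-dox tumours (1 to 4), against 0.237 and 0.210 in the on-dox pair. The ratio was therefore lower in both on-dox tumours than in any off-dox tumour, which was chosen after the values were seen and was not tested.

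DDIT3, which encodes the factor CHOP and is raised by ATF4 in prolonged stress, was at 46.3, 30.3, 30.7 and 19.1 CPM off dox and at 20.3 and 29.7 CPM on dox. The off-dox tumours spanned 2.43-fold, and both on-dox tumours lay inside that span. The log2 fold change was -0.34 (SE 0.28, adjusted p = 0.646), with a 95% interval of the fold change from 0.514 to 1.22. It was -0.09 without off-dox tumour 1, -0.09 when on-dox tumour 1 was left out and -0.64 when on-dox tumour 2 was. Exons of DDIT3 overlap those of MARS and MBD6 on the other strand in the GENCODE annotation, and the strand setting is not given, so reads there cannot be told apart. ATF3, a stress-induced factor of the same family, was at 28.6, 26.7, 23.9 and 16.1 CPM off dox and at 22.3 and 26.0 CPM on dox (log2 ratio 0.02, adjusted p = 0.9746). ATF5, whose mRNA is also translated preferentially when eIF2 is phosphorylated, was at 5.96 to 9.96 CPM off dox and 7.79 and 9.32 CPM on dox (log2 ratio 0.03, adjusted p = 0.965). Its exons overlap those of NUP62, with 6846 counts over the 6 tumours against 1275 for ATF5.

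All 5 feedback and stress effectors had log2 fold changes below 0, with a median of -0.39, but none passed correction. PPP1R15A (GADD34), the subunit that directs phosphatase to eIF2, was at 76.3, 59.2, 64.9 and 46.9 CPM off dox and at 34.7 and 49.6 CPM on dox. On-dox tumour 2 lay just above off-dox tumour 4, so the groups overlapped. The log2 fold change was -0.55 (SE 0.19, adjusted p = 0.218). It was -0.32 when on-dox tumour 1 was left out and -0.84 when on-dox tumour 2 was, and PPP1R15A was called without a low-count filter (adjusted p = 0.0301; 0.0301 to 0.586 over all alternatives).

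TRIB3, a pseudokinase that binds ATF4 and CHOP and restrains them, was at 35.6, 26.8, 25.9 and 25.2 CPM off dox and at 17.9 and 23.7 CPM on dox. The off-dox range was above both on-dox tumours, the second by a small margin (log2 ratio -0.45 with SE 0.17, adjusted p = 0.269). It was -0.26 when on-dox tumour 1 was left out and -0.67 when on-dox tumour 2 was. VLDLR, a lipoprotein receptor gene raised by ATF4, was at 10.8, 11.1, 12.3 and 12.1 CPM off dox and at 10.03 and 7.62 CPM on dox. Both on-dox tumours again lay below the off-dox range (log2 ratio -0.39 with SE 0.17, adjusted p = 0.320), and here on-dox tumour 2 was the lower. It was -0.60 when on-dox tumour 1 was left out and -0.21 when on-dox tumour 2 was. CEBPB, TRIB3 and VLDLR were the 3 genes of 32 whose on-dox tumours both lay below the off-dox range, a share no larger than the 11.5% of all genes tested.

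SESN2, a leucine-binding inhibitor of mTORC1, was at 9.81, 10.01, 9.22 and 6.87 CPM off dox and at 5.93 and 8.59 CPM on dox (log2 ratio -0.31, adjusted p = 0.575). CHAC1, which degrades glutathione and is a sensitive ATF4 target, was the scarcest of the 32 by CPM. It was at 2.46, 1.99, 1.48 and 1.91 CPM off dox and at 1.01 and 2.07 CPM on dox. The log2 fold change was -0.35 (SE 0.36, adjusted p = 0.722), -0.96 when on-dox tumour 2 was left out and 0.08 when on-dox tumour 1 was. Its 95% interval, from 0.448-fold to 1.37-fold, was the widest of the 32.

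**Figure D2:**
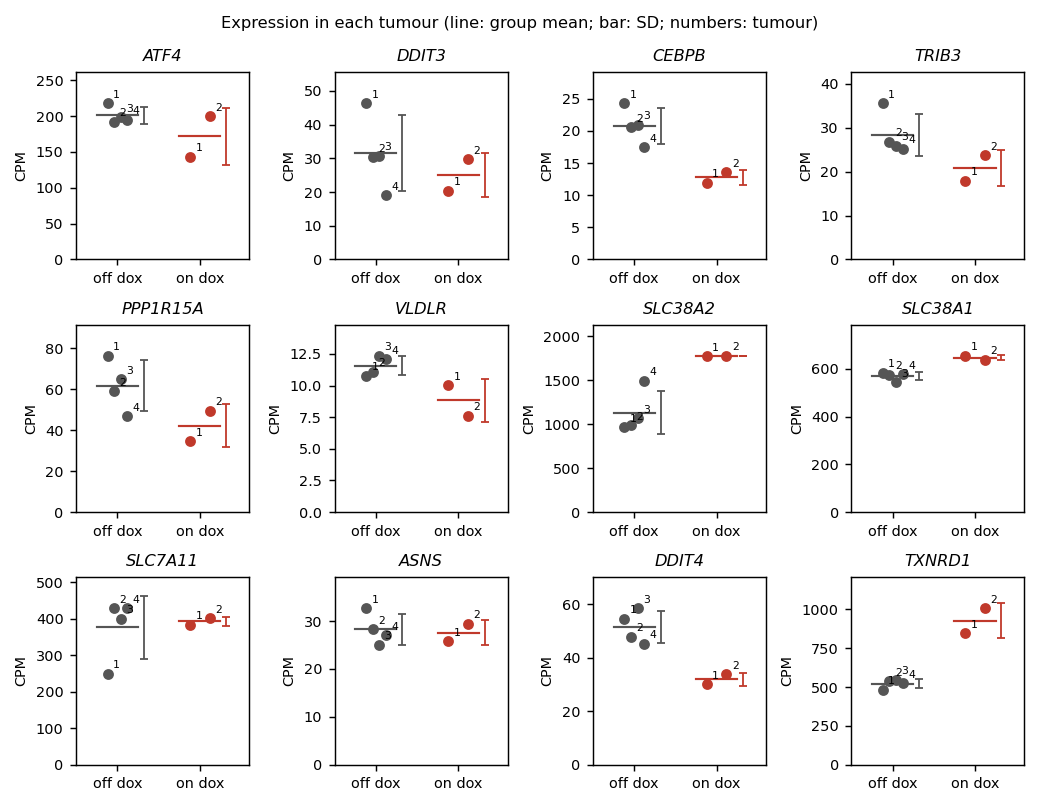
CPM in each tumour (y axis, from 0) for 10 of the 32 genes and for DDIT4 and TXNRD1, off dox (grey) and on dox (red), numbered by tumour, with the group mean (line) and SD (bar). CEBPB, TRIB3, VLDLR, SLC38A2 and SLC38A1 do not overlap between the groups, while ATF4, DDIT3, PPP1R15A, SLC7A11 and ASNS do.

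The enzymes of amino acid synthesis lay slightly below 0 as a group, with a median log2 fold change of -0.20 and adjusted p values of 0.459 and above. ASNS, asparagine synthetase and the best known target of the composite element printed above, was at 32.6, 28.3, 25.1 and 27.01 CPM off dox and at 25.8 and 29.4 CPM on dox. Both on-dox tumours lay inside the off-dox range (log2 ratio -0.03 with SE 0.13, adjusted p = 0.939), and the 95% interval of the ASNS fold change ran from 0.798 to 1.195. Differences within this interval are not excluded. The interval is also no limit of detection over all genes, since CEBPB, at 0.614-fold with an SE of 0.15, was not called by edgeR.

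The serine pathway starts with PHGDH, which draws 3-phosphoglycerate from glycolysis. PHGDH was at 18.0, 18.4, 13.1 and 21.3 CPM off dox and at 13.4 and 14.8 CPM on dox. PSAT1, the aminotransferase of the next step, was at 40.6, 38.4, 28.6 and 42.8 CPM off dox and at 30.9 and 31.8 CPM on dox. In both genes off-dox tumour 3 was the lowest of all 6, the on-dox tumours came next, and the groups overlapped through that 1 tumour. The log2 fold changes were -0.33 (SE 0.18, adjusted p = 0.459) for PHGDH and -0.26 (SE 0.15, adjusted p = 0.481) for PSAT1. PSPH, the phosphatase that completes serine, was at 16.8 to 22.8 CPM off dox and at 12.7 and 20.3 CPM on dox (log2 ratio -0.20, adjusted p = 0.709; -0.58 when on-dox tumour 2 was left out and 0.10 when on-dox tumour 1 was). Its copy PSPHP1 had counts equal to 16.2% of those of PSPH, so the values of PSPH are uncertain. SHMT2, the mitochondrial enzyme that turns serine into glycine, was at 76.1 to 88.1 CPM off dox and at 65.0 and 88.4 CPM on dox (log2 ratio -0.12, adjusted p = 0.728).

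Among the transporters, SLC38A2 was the most abundant transcript of the 32 and had the largest log2 fold change above 0. SLC38A2 (SNAT2), which imports alanine, serine, glutamine and other neutral amino acids with sodium, was at 969.5, 990.9, 1069 and 1498 CPM in off-dox tumours 1 to 4. It was at 1776 and 1779 CPM in on-dox tumours 1 and 2. Both on-dox tumours lay above all 4 off-dox tumours, as for 11.5% of all genes tested, and off-dox tumour 4 lay between the rest and the on-dox pair. The fold change was 1.57, with a 95% interval from 1.21 to 2.03 (log2 ratio 0.65 with SE 0.17, adjusted p = 0.104). Without off-dox tumour 4, the highest off-dox tumour for this gene, SLC38A2 was called higher by edgeR (log2 ratio 0.82, adjusted p = 0.0245). That fit called 133 genes over the whole table, against 225 in the main fit. Leaving out the highest off-dox value by itself widens the difference. Over all alternatives the adjusted p of SLC38A2 ranged from 0.00294 to 0.254. The log2 ratio was 0.65 when on-dox tumour 1 was left out, and 0.65 when on-dox tumour 2 was.

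SLC38A1 (SNAT1), a glutamine importer of the same family, was at 584, 574, 543 and 578 CPM off dox and at 654 and 638 CPM on dox. Both on-dox tumours lay above the off-dox range (log2 ratio 0.18 with SE 0.10, adjusted p = 0.426), and SLC38A2 and SLC38A1 were the only 2 of the 32 genes that did, a smaller share than the 11.5% of all genes tested. The ratio of SLC38A2 to SLC38A1 in CPM was 1.66, 1.73, 1.97 and 2.59 in the off-dox tumours (1 to 4), against 2.71 and 2.79 in the on-dox pair. This ratio draws on the same SLC38A2 values, adds no separate evidence and was not tested. SLC38A2 made up 19.1% to 26.1% of all counts of the 32 genes in the off-dox tumours, and 31.1% and 29.1% in the on-dox pair. The 32 genes together held 0.489% to 0.575% of a library off dox and 0.601% and 0.587% on dox. With so large a part from SLC38A2, this total does not show a rise of the other genes. Of the 32 genes, 18 had a log2 fold change below 0, and the median was -0.05.

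SLC3A2 (4F2hc) is the heavy chain that carries SLC7A5 and SLC7A11 to the cell surface. It was at 220, 217, 194 and 205 CPM off dox and at 156 and 195 CPM on dox. On-dox tumour 1 was the lowest and on-dox tumour 2 barely exceeded off-dox tumour 3 (log2 ratio -0.26 with SE 0.11, adjusted p = 0.326; -0.10 when on-dox tumour 1 was left out and -0.43 when on-dox tumour 2 was). SLC7A5 (LAT1), the exchanger of large neutral amino acids, was at 201, 216, 157 and 195 CPM off dox and at 210.1 and 191 CPM on dox (log2 ratio 0.06, adjusted p = 0.869). SLC7A11 (xCT), which exchanges glutamate for cystine, was at 249, 428, 400.3 and 428 CPM off dox and at 384 and 402 CPM on dox (log2 ratio 0.06, adjusted p = 0.921). Off-dox tumour 1 was far below the other 5 tumours in SLC7A11, and without it the log2 fold change was -0.09. The ratio of SLC7A11 to SLC3A2 in CPM was 1.13 in off-dox tumour 1, 1.97 to 2.08 in the other off-dox tumours, and 2.46 and 2.07 in the on-dox pair (1 and 2).

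The remaining transporters did not separate the groups. SLC7A1, the importer of cationic amino acids such as arginine, was at 231 to 307 CPM off dox and at 310 and 252 CPM on dox (log2 ratio 0.08, adjusted p = 0.843). SLC1A4, an exchanger of alanine, serine and cysteine, was at 7.69 to 11.8 CPM off dox and at 8.79 and 10.8 CPM on dox (log2 ratio 0.07, adjusted p = 0.919). SLC1A5 (ASCT2), a glutamine exchanger, was at 104 to 123 CPM off dox and at 95.5 and 119 CPM on dox (log2 ratio -0.06, adjusted p = 0.861). Transport therefore held both the largest positive value and several near 0, with a median of 0.07.

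The 8 genes of tRNA charging and export stayed close to 0, with a median log2 fold change of 0.06, a range from -0.25 to 0.17 and adjusted p values of 0.457 to 0.952. All 8 intervals lay within 2-fold. SARS, the seryl-tRNA synthetase, was at 122, 107, 103 and 105 CPM off dox and at 76.0 and 108 CPM on dox. On-dox tumour 1 alone lay below the off-dox range (log2 ratio -0.25 with SE 0.14, adjusted p = 0.457; -0.01 when on-dox tumour 1 was left out and -0.53 when on-dox tumour 2 was). NARS, the asparaginyl-tRNA synthetase, was at 76.8, 68.0, 72.5 and 78.7 CPM off dox and at 70.2 and 96.7 CPM on dox. Here on-dox tumour 2 alone lay above the off-dox range (log2 ratio 0.17 with SE 0.13, adjusted p = 0.590; 0.39 when on-dox tumour 1 was left out and -0.08 when on-dox tumour 2 was).

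EPRS, the synthetase for glutamate and proline, varied least among the off-dox tumours of all 32 genes, with a coefficient of variation of 2.27% around 276 CPM, and was at 268 and 301 CPM on dox. AARS (alanyl) was at 311 to 336 CPM off dox and at 310 and 372 CPM on dox. GARS (glycyl) was at 96.7 to 108 CPM and at 93.8 and 101 CPM. Its exons overlap those of GARS-DT on the other strand, whose counts equal 35.6% of those of GARS, and with no strand setting given the values of GARS are uncertain. IARS (isoleucyl) was at 346 to 408 CPM and at 355 and 404 CPM, and MARS (methionyl) at 100.2 to 116 CPM and at 103 and 126 CPM. XPOT, which exports charged-ready tRNA from the nucleus, was at 340 to 374 CPM off dox and at 365 and 398 CPM on dox. On-dox tumour 2 lay above the off-dox range for AARS, NARS, EPRS, MARS and XPOT, and on-dox tumour 1 did so for none of the 8.

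**Figure D3:**
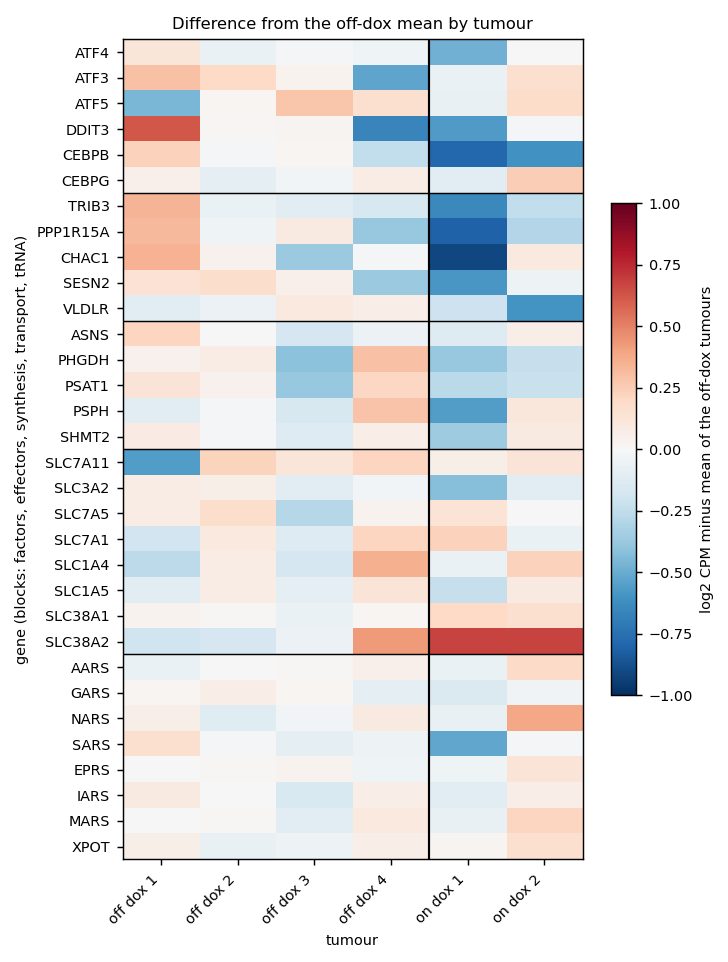
Difference of log2 CPM from the off-dox mean (colour, blue lower and red higher) for the 32 genes (rows, in blocks by role) in each tumour (columns; the vertical line parts off dox from on dox). SLC38A2 is red and CEBPB blue in both on-dox tumours, while most other genes are bluer in on-dox tumour 1 than in on-dox tumour 2.

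The on-dox tumours differed from each other in most of these genes. On-dox tumour 1 lay below on-dox tumour 2 in 28 of 32 genes, the exceptions being VLDLR, SLC7A5, SLC7A1 and SLC38A1. The same order held in 48.9% of all genes tested and in 55.7% of the 13996 genes with a mean CPM at or above that of the lowest of the 32. Relative to the off-dox mean of log2 CPM, 6 of 32 genes lay above 0 in on-dox tumour 1 and 19 of 32 in on-dox tumour 2. The median difference over the 32 genes was -0.14 in on-dox tumour 1 and 0.08 in on-dox tumour 2, with the off-dox tumours from -0.06 to 0.06. For the 5 effectors it was -0.65 and -0.24 in on-dox tumours 1 and 2, and 0.33, -0.04, 0.05 and -0.16 in off-dox tumours 1 to 4. For the 5 synthesis enzymes it was -0.36 and 0.07 on dox and from -0.17 to 0.20 off dox. With on-dox tumour 1 left out, the median log2 fold change of the 32 genes was 0.07, and with on-dox tumour 2 left out it was -0.14. The high mitochondrial and nuclear RNA of on-dox tumour 1 moved with this difference, and its part in it was not tested.

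The off-dox tumours also varied, in genes of several roles. DDIT3 had the largest coefficient of variation among them, 35.4%, followed by ATF3 (23.0%), SLC7A11 (22.8%), SLC38A2 (21.9%) and ATF5 (20.7%), while ATF4 (5.83%) and CEBPG (5.31%) varied little. Off-dox tumour 1 was the highest and off-dox tumour 4 the lowest of the 4 for DDIT3, ATF3, CEBPB, PPP1R15A and TRIB3. For SLC38A2, SLC7A1, SLC1A4, SLC1A5 and AARS the order of these 2 tumours was reversed, with off-dox tumour 1 lowest and off-dox tumour 4 highest. The ratio of DDIT3 to ATF4 in CPM went from 0.213 in off-dox tumour 1 to 0.0978 in off-dox tumour 4, and was 0.142 and 0.149 in on-dox tumours 1 and 2. Collagen RNA of the fibroblast list was highest in off-dox tumour 1 and muscle RNA in off-dox tumour 4. The part of either in this order was not tested.

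Levels of the 32 genes can be ranked only per length, so CPM was divided by kilobases of annotated exon. On that scale SLC38A2 had the highest off-dox mean, 171 CPM per kilobase (range 147 to 227), followed by ATF4 at 79.9 (76.4 to 86.7), AARS at 72.3 (69.1 to 74.7) and SLC38A1 at 56.9 (54.3 to 58.3). The off-dox ranges of these first 4 did not overlap from one gene to the next. IARS, EPRS and XPOT followed at 52.1, 50.7 and 48.5 CPM per kilobase with overlapping ranges. SLC7A5, SLC3A2 and SLC7A11, the members of the shared-heavy-chain exchangers, lay together at 40.5, 40.4 and 39.0 CPM per kilobase, and their ranges overlapped. At the low end were PHGDH at 1.92, SLC1A4 at 1.35, VLDLR at 1.24 and CHAC1 at 0.952 CPM per kilobase. Of the serine enzymes, SHMT2 and PSAT1 were both at 17.2, PSPH at 6.84 and PHGDH at 1.92 CPM per kilobase. Their order depends on the divisor, which counts every annotated exon of a gene. It was 9.22 kilobases for PHGDH, 4.84 for SHMT2, 2.76 for PSPH and 2.19 for PSAT1. Undivided, the off-dox means of PHGDH and PSPH were close, at 17.7 and 18.9 CPM. Exon lengths came from an annotation on another build than the counts, and they can exceed the length of the transcript expressed. These levels and ranks are therefore approximate.

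**Figure D4:**
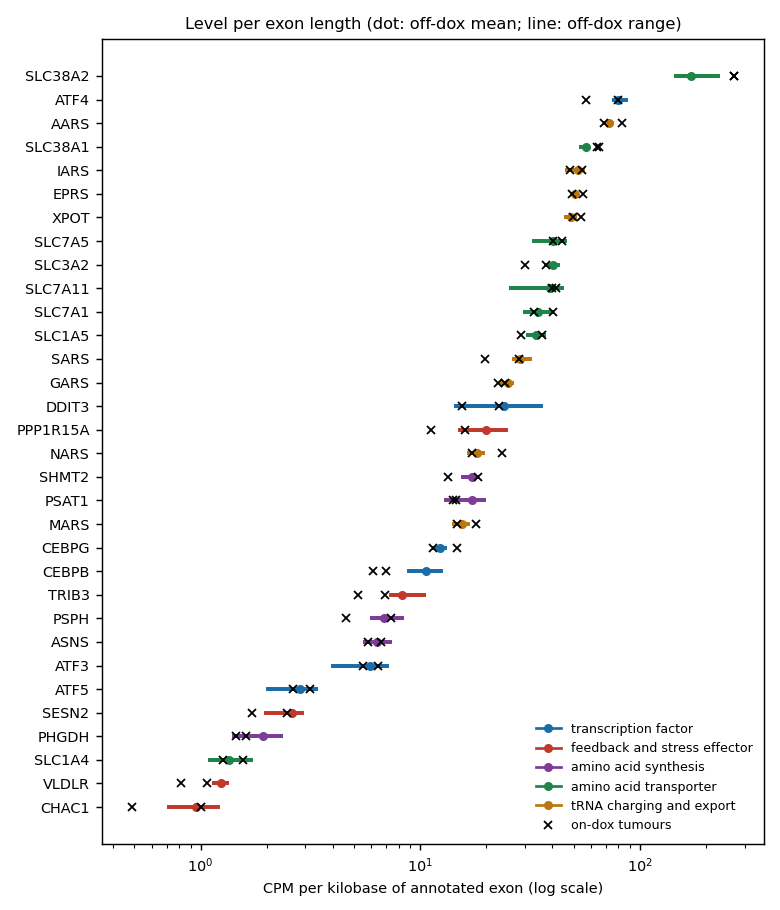
CPM per kilobase of annotated exon (x axis, log scale) for the 32 genes in order of their off-dox mean (dot), with the off-dox range (line) and both on-dox tumours (crosses), coloured by role. Levels run from 0.952 for CHAC1 to 171 for SLC38A2, and the crosses of SLC38A2 and SLC38A1 lie right of their lines.

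Genes upstream and beside the 32 were read from further lists. All genes tested give the share beside each count. Of 18 genes of eIF2 kinases and eIF2 control none was called by edgeR, against 1.06% of all genes tested. By an unadjusted p under 0.05, 4 of the 18 lay higher and 0 lower, against 6.84% and 7.42% of all genes tested. Their median log2 fold change was 0.08, with 12 above 0. EIF2AK2 (PKR), the kinase that senses double-stranded RNA, was at 257, 341, 327 and 287 CPM off dox and at 467 and 398 CPM on dox (log2 ratio 0.52 with SE 0.13, adjusted p = 0.0926). Both on-dox tumours were above the off-dox range, and EIF2AK2 was called by DESeq2 (adjusted p = 0.0105) and by edgeR without a low-count filter (0.0101). The separation was not particular to EIF2AK2. In this list 8 of 18 genes lay wholly above the off-dox range and 2 wholly below, against 11.5% each of all genes tested. PPP1R15B, the constitutive counterpart of PPP1R15A, was at 132 to 146 CPM off dox and at 178 and 164 CPM on dox (log2 ratio 0.32 with SE 0.09, adjusted p = 0.129). The 2 phosphatase subunits thus lay on opposite sides of 0, neither past the threshold.

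Of 16 tested genes in a list of other ATF4 targets, 1 was called lower and 0 higher, against 0.591% and 0.465% of all genes tested. At an unadjusted p under 0.05, 2 lay higher and 4 lower, against 6.84% and 7.42%, and the median was -0.14. DDIT4 (REDD1), an mTORC1 inhibitor also induced by hypoxia and glucocorticoids, fell: its mean was 51.5 ± 6.02 CPM (SD, n = 4) off dox and 31.9 ± 2.49 CPM (SD, n = 2) on dox. Its values were 54.5, 47.9, 58.4 and 45.2 CPM off dox and 30.2 and 33.7 CPM on dox, a log2 ratio of -0.69 (SE 0.13, adjusted p = 0.0377). The call of DDIT4 was lost without off-dox tumour 1, 2 or 3 or on-dox tumour 1 (adjusted p from 0.0789 to 0.160, log2 fold changes from -0.73 to -0.61) and with the replicate number as a block (0.269). In the list of amino acid sensing and mTORC1, 0 of 17 genes were called by edgeR, against 1.06% of all genes tested. At an unadjusted p under 0.05, 1 of the 17 lay higher and 2 lower, against 6.84% and 7.42%. SESN3, a sestrin like SESN2, was at 12.7 to 16.8 CPM off dox and at 9.34 and 6.64 CPM on dox (log2 ratio -0.89 with SE 0.18, adjusted p = 0.0516), and RRAGD, a Rag GTPase, was at 19.8 to 27.2 CPM and at 29.2 and 35.1 CPM (0.44, adjusted p = 0.191).

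The other lists of protein synthesis and amino acid handling had medians near 0 and no gene called by edgeR, against 1.06% of all genes tested. They were 16 other cytosolic tRNA synthetase and scaffold genes (median -0.07), 17 mitochondrial tRNA synthetases (-0.06), 16 tested other amino acid transporters (0.01) and 14 one-carbon and glycine enzymes (0.06). At an unadjusted p under 0.05, 1 gene lay lower in each of these lists but the transporters, where 1 lay higher, and 7.42% and 6.84% of all genes tested did so. The smallest p values in the first 2 lists belonged to the scaffold gene AIMP2 (log2 ratio -0.44, adjusted p = 0.199) and to NARS2 (-0.32, adjusted p = 0.221), with QARS (-0.21, adjusted p = 0.392) next in the first. SLC1A3, a glutamate and aspartate importer, was at 7.85, 19.9, 14.7 and 18.4 CPM off dox and at 35.5 and 33.2 CPM on dox. Both on-dox tumours lay above the off-dox range (log2 ratio 1.18 with SE 0.27, adjusted p = 0.0727), and SLC1A3 was called by DESeq2 (adjusted p = 0.000398), without a low-count filter (9.36e-05) and without off-dox tumour 1 (0.0330), the lowest tumour. SLC36A1 was at 0.30 (adjusted p = 0.407). Of the one-carbon enzymes, SHMT1, the cytosolic counterpart of SHMT2, was at 42.0 to 51.9 CPM off dox and at 33.6 and 37.8 CPM on dox (log2 ratio -0.41, adjusted p = 0.146), and AMT was at 0.44 (adjusted p = 0.382).

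The endoplasmic reticulum and NRF2 lists bear on inputs that some of the 32 genes share. Of 15 genes of the unfolded protein response none was called by edgeR, against 1.06% of all genes tested, and their median was 0.07. By an unadjusted p under 0.05, 1 of the 15 lay higher and 0 lower, against 6.84% and 7.42%. The chaperone gene HYOU1 was at 199 to 233 CPM off dox and at 244 and 288 CPM on dox (log2 ratio 0.32, adjusted p = 0.194), and EDEM1 had a log2 ratio of 0.19 (adjusted p = 0.377). Of 10 NRF2 targets, a list that SLC7A11 would also belong to, 1 was called higher and 0 lower, against 0.465% and 0.591% of all genes tested, with a median of -0.04. At an unadjusted p under 0.05, 1 lay higher and 1 lower, against 6.84% and 7.42%. The lower one was HMOX1, at 62.68 to 76.85 CPM off dox and at 51.25 and 46.51 CPM on dox. Its log2 ratio was -0.49 (SE 0.11, adjusted p = 0.0705 by edgeR). TXNRD1, cytosolic thioredoxin reductase, rose from 484, 536, 546 and 523 CPM off dox to 848 and 1006 CPM on dox (log2 ratio 0.83 with SE 0.11, adjusted p = 0.00903). The call of TXNRD1 was kept in each fit that left out 1 tumour and was lost with the replicate number as a block (adjusted p = 0.192).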

How the data were processed

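RNA sequencing of 6 tumours was used. Per the labels' protocols, total RNA came from a Trizol extraction and was made into libraries by Illumina's standard procedure. The authors deposited raw whole-number counts per gene. The submitters' processing notes name STAR, HTSeq, limma and build hg19; the sources used here give no versions, no strand setting and no step for reads from the mouse host, so mouse reads aligned to human genes can be part of any count. Of 57798 lines, 25 with a repeated identifier were dropped.

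Groups came from the sample titles. The main test on counts was that of edgeR 4.0.16, run in R 4.3.3 (TMM scaling, filterByExpr, quasi-likelihood F test, Benjamini-Hochberg adjustment over all 21308 genes, threshold 0.05), after a check on simulated counts. SEs and 95% intervals come from the same fit. CPM uses TMM-scaled library sizes. Alternatives were DESeq2 size factors, upper-quartile scaling, other filters, DESeq2 1.42.0, limma 3.58.1 voom, a replicate block and leaving out each tumour. No pair of tumours within a group was a duplicate (chi-square per degree of freedom 8.57 to 45.7). Pairs across the groups were not checked. Exon lengths and overlaps came from GENCODE 29, promoters from RefSeq.

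The genes and lists were chosen with earlier results of these data known. Every gene of the 32 may be named. Values for each tumour are given for called or non-overlapping genes, ATF4, DDIT3, ASNS and the 2 smallest p values of each role, and for some others. Other lists show called genes, or else the 2 with the smallest p. HMOX1 of the NRF2 list is given as well. For the mitochondrial synthetases, 1 of these 2 is not reported here.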

Additional observations from a re-analysis of the deposited data

Results flagged for a closer look

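In 2 of the 32 genes the off-dox tumours held 1 value far from the other 3, both in off-dox tumour 1. SLC7A11 was at 249 CPM there, and the gap to the next tumour was 0.846 of the group's range. TRIB3 was at 35.6 CPM there, with a gap of 0.844 of the range. Both gaps exceed Dixon's critical value for 4 tumours at 95%, and chance alone gives such a gap in about 1 in 20 groups.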

How the results depend on the processing

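Of 416 values of the 32 genes under 13 alternatives, 383 kept their direction and side of the threshold, 25 changed sign and 8 passed the threshold. Genes called over the whole table, 225 as reported, were 770 with no low-count filter, 697 by DESeq2, 53 with the replicate block and 72 to 562 with 1 tumour left out. Of the 32, 1 was called higher without a filter and by DESeq2; 2 were called lower without a filter, 1 with at least 1 CPM in every tumour and 1 by DESeq2; with 1 tumour left out, 0 to 1 were called in each direction. Their median log2 fold change, -0.048, was -0.135 with the replicate block and -0.144 to 0.073 with 1 tumour left out. Under the replicate block, ATF3 was at -0.198 and SLC7A5 at -0.053. With 1 tumour left out, the genes that changed sign ranged as follows: AARS -0.074 to 0.196, ASNS -0.137 to 0.060, ATF3 -0.127 to 0.131, ATF5 -0.108 to 0.157, CEBPG -0.116 to 0.248, CHAC1 -0.962 to 0.077, EPRS -0.049 to 0.127, IARS -0.122 to 0.069, MARS -0.078 to 0.212, NARS -0.082 to 0.387, PSPH -0.576 to 0.103, SHMT2 -0.363 to 0.087, SLC1A4 -0.093 to 0.212, SLC1A5 -0.237 to 0.092, SLC7A1 -0.073 to 0.216, SLC7A11 -0.090 to 0.129 and SLC7A5 -0.022 to 0.125, and, outside the 32, AMT -0.023 to 0.788. Where sign or call changed, the cause was not tested, other than the fewer tumours. A lone on-dox tumour takes its spread from the off-dox group by assumption. Replicate numbers are not said to pair tumours (correlations of deviations -0.032 and 0.0063 for numbers 1 and 2), so the block has no basis in the labels. With 2 on-dox tumours, small changes are missed.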
